A study of Mus musculus with 20 samples.

Results

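Iron and copper handling in the cecum was followed through 10 genes of the 19887 in the count table. They encode the ferroxidases Hephl1 and Heph, the iron exporter Slc40a1, the iron importers Slc11a2 and Tfrc with the ferric reductase Cybrd1, the ferritin subunits Fth1 and Ftl1, and the copper pumps Atp7a and Atp7b. They were chosen by name for their roles in ferroxidation and in iron or copper transport and storage, with earlier results of these data known. Each was matched to its Ensembl identifier. All 10 were found and all 10 passed the filter on low counts. With 10% raw potato starch (RPS), Hephl1 was downregulated past the threshold compared with 0% RPS, and the other 9 genes did not pass it. By comparison, 1.04% of all genes tested passed. The call of Hephl1 was kept in 4 of the 10 fits without 1 mouse, and DESeq2 called 0 of the 10 genes. Slc11a2 had a small difference with a Benjamini-Hochberg adjusted p of 0.0913 by edgeR. It was higher in every mouse fed 10% RPS than in any mouse fed 0% RPS. Of all genes tested, 4.88% had no overlap between these diets in either direction.

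The gut epithelium takes up iron across its luminal face after reduction of ferric iron, stores it in ferritin, and releases it at the basolateral face through ferroportin, the product of Slc40a1. The released iron is oxidized by a copper-dependent ferroxidase such as hephaestin, the product of Heph, so that iron release depends on copper supply, to which the pump Atp7a contributes. Most textbook knowledge of this system comes from the duodenum. The cecum lies far downstream, where starch that escapes digestion is fermented by bacteria. Hephl1 encodes a further member of the hephaestin and ceruloplasmin family, known as zyklopen.

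RNA from the cecum of 20 C57BL/6 mice was sequenced, with 5 mice on each of 4 diets. All mice ate the Total Western Diet (TWD), a purified diet formulated after Western eating habits, from about 3 weeks of age for 6 weeks. They then received the TWD alone (0% RPS) or the TWD with 2, 5, or 10% RPS for a further 3 weeks, so that the control mice also carried the background of a Western diet. The labels do not give the sex of these mice, and the mice are numbered 1 to 5 within each diet only as names. The RNA came from pieces of the cecum, which hold several cell types, so that fewer cells of a type and less RNA per cell cannot be told apart.

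The libraries held 14967798 to 42687283 counts. In the smallest library, 3 counts corresponded to 0.200 CPM, the read count scaled to a common library total. Mitochondrial genes took 8.998 to 11.5% of the counts in 17 mice. They took 13.0% in mouse 5 on 0% RPS, 13.8% in mouse 3 on 2% RPS, and 15.4% in mouse 4 on 5% RPS. Mouse 5 on 0% RPS stood apart from the other control mice in several of the genes described here, and values without it are given beside the results it moved most. All 8 epithelial markers examined were counted in every mouse. Of the 4 liver markers, Alb and Serpina1a were at 0 in some mice, whereas Ttr and Apoa2 were counted in every mouse. The sum of the 4 averaged 34.8 CPM with 0% RPS. In all 20 mice, 15 counts were found for Hamp, the liver hormone hepcidin that removes ferroportin from the cell surface.

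Several of these genes share a control sequence in their messenger RNA, the iron-responsive element (IRE). An IRE is a short hairpin whose loop is bound by the iron regulatory proteins when iron is scarce. Binding before the coding part blocks translation, as known for the ferritins and ferroportin, whereas binding after it protects the Tfrc messenger RNA from decay. The hairpins are shown because they divide the 10 genes by what a read count can reflect. The search was for C, then 5 bases, the loop CAGTGN, and 5 bases that pair with the first 5 (G to T pairs allowed) on the transcript strand. In the GENCODE transcripts it found 7 sites in 4 of the 10 genes, 1 in each of Fth1, Ftl1, and Slc40a1 before the coding part and 4 in Tfrc after it. The site was in 25 of 29 transcripts of Fth1, 7 of 11 of Ftl1, and 9 of 15 of Slc40a1. Each Tfrc site was in 17 of 22 transcripts. A count per gene does not separate transcripts with and without a site. Loop bases are in capitals, and 6 flanking bases are printed on each side of the 17 bases of the site.
Fth1: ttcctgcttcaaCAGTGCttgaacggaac
Ftl1: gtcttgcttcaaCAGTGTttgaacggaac
Slc40a1: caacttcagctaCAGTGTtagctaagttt
Tfrc, site 1: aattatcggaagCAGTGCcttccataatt
Tfrc, site 2: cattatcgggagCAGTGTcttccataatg
Tfrc, site 3: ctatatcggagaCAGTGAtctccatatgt
Tfrc, site 4: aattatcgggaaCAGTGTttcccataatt

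On GRCm39, the sites of Fth1 (chr19:9960102-9960118, plus strand), Ftl1 (chr7:45109209-45109225, minus strand), and Slc40a1 (chr1:45964631-45964647, minus strand) lie in the 5′ UTR in exon 1 of their genes. The 4 sites of Tfrc lie on the plus strand in the 3′ UTR in exon 19 of 19, at chr16:32450043-32450059, chr16:32450422-32450438, chr16:32450487-32450503, and chr16:32450534-32450550. Of 17681 protein-coding genes in the table, 143 (0.809%) held such a site in a UTR of the canonical transcript, 24 of them (0.136%) in the 5′ UTR. Tfrc was the gene with 4 sites in the 3′ UTR, and no other gene had as many. A looser match, with 4 of 5 pairs, was found in Slc11a2 after the coding part in 13 of its 34 transcripts, though not in the canonical one (chr15:100293040-100293056, minus strand). Its window, with the loop again in capitals, read as follows.
Slc11a2: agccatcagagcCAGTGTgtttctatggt

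Matches with at least 4 pairs are common, since 996 genes (5.63%) held one in a UTR. Hephl1, Cybrd1, Atp7a, and Atp7b had no match of either kind in their transcripts, and Heph had one with 4 pairs inside its coding part. No measurement of these data bears on binding at any of the sites.

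The 10 genes covered a wide range of levels. Per kilobase of the canonical transcript, the order with 0% RPS was Fth1 (2464 ± 918 CPM per kilobase, SD, n = 5), Ftl1 (164 ± 43.3), Tfrc (79.5 ± 35.4), Heph (40.2), Slc11a2 (11.8), Slc40a1 (9.47), Cybrd1 (0.836), Atp7a (0.623), Hephl1 (0.119), and Atp7b (0.0406). Ferritin heavy chain was thus the most abundant per length by 15.1-fold over the light chain. Among neighbours in this order, the values of individual mice overlapped between Tfrc and Heph, between Slc11a2 and Slc40a1, and between Cybrd1 and Atp7a. The order of the means was the same with 2, 5, and 10% RPS except at its end, where Atp7b lay above Hephl1 in all 3 diets. Fth1 and Ftl1 have near-identical copies elsewhere in the genome, and how reads that fit several places were counted is not given in the sources used here, so that their levels are uncertain.

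**Figure D1:**
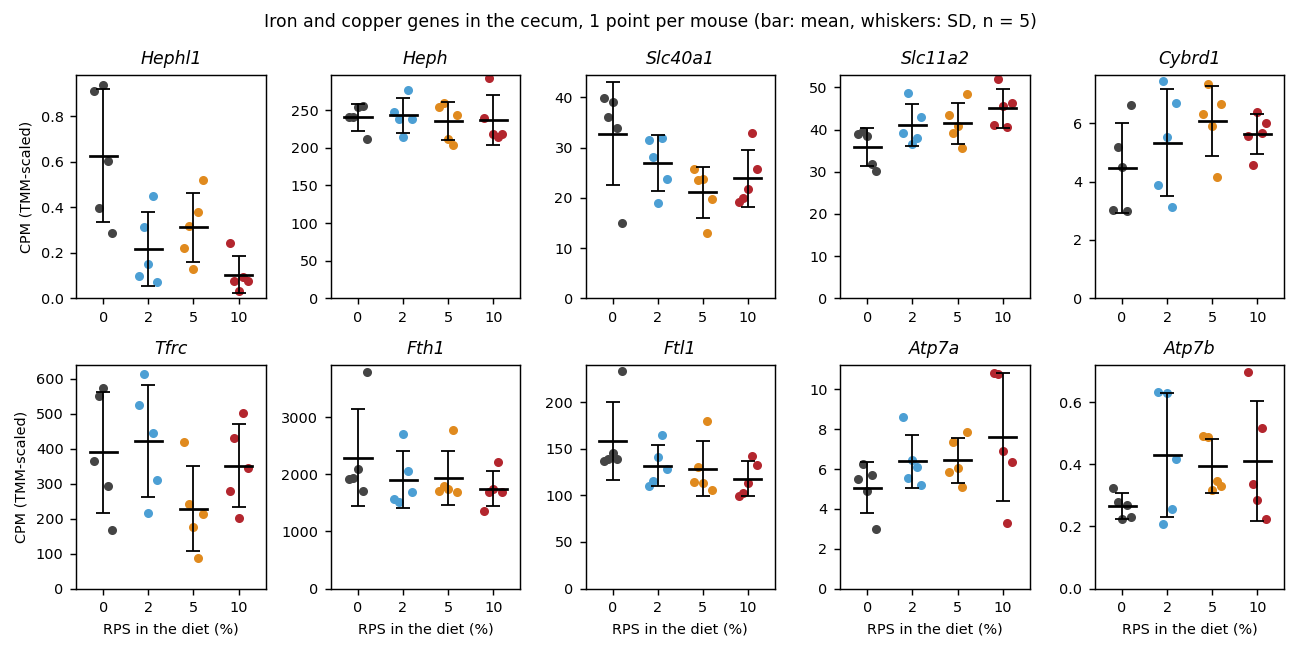
CPM (scaled by TMM) of each of the 10 genes on the vertical axis against the percentage of RPS in the diet, with 1 point per mouse, a bar for the mean, and whiskers for the SD (n = 5). Every mouse fed 10% RPS lay below every mouse fed 0% RPS for Hephl1 and above for Slc11a2, and the highest Fth1 and Ftl1 values and the lowest Slc40a1 value with 0% RPS came from mouse 5.

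Hephl1 (ENSMUSG00000031936, chr9:14963137-15023415, minus strand) was rare in all diets, with 183 counts in all 20 mice. With 0% RPS, mice 1 to 5 had 28, 10, 25, 18, and 10 counts, or 0.911, 0.398, 0.938, 0.604, and 0.287 CPM. With 10% RPS they had 7, 3, 1, 2, and 2 counts, or 0.244, 0.0774, 0.0316, 0.0942, and 0.0750 CPM. The values of the 2 diets did not overlap, although 4 of the 5 mice fed 10% RPS had no more than 3 counts. The means of the other diets were intermediate, 0.216 CPM with 2% RPS and 0.312 CPM with 5% RPS. Single mice were at 0.0973, 0.313, 0.150, 0.450, and 0.0698 CPM with 2% RPS and at 0.219, 0.317, 0.127, 0.378, and 0.518 CPM with 5% RPS, and they overlapped with the control mice in both diets.

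Hephl1 with 10% RPS had a log2 fold change of -2.55 (SE 0.55, 95% confidence interval -3.70 to -1.41, Benjamini-Hochberg adjusted p = 0.0271 by edgeR's quasi-likelihood test). From the summed counts, 15 with 10% RPS against 91 with 0% RPS, the ratio was 0.165 (95% interval 0.0888 to 0.287, exact and for counting error only). The same ratio was 0.508 (0.346 to 0.736) with 5% RPS and 0.340 (0.221 to 0.512) with 2% RPS. In the fit the log2 fold change was -0.98 (SE 0.48, adjusted p = 0.389 by edgeR) with 5% RPS and -1.52 (SE 0.50, adjusted p = 0.793 by edgeR) with 2% RPS.

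The call of Hephl1 with 10% RPS rested on few counts. When each of the 10 compared mice was left out in turn, its log2 fold change stayed between -3.12 and -2.31 and it passed the threshold in 4 of the 10 fits, with adjusted p-values of 0.0204 to 0.0963 (edgeR). It was lost without mouse 1, 3, or 4 on 0% RPS and without mouse 2, 3, or 5 on 10% RPS. Without mouse 5 on 0% RPS the adjusted p was 0.0395 (edgeR).

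Heph (ENSMUSG00000031209, chrX:95498965-95621010, plus strand), the ferroxidase paralogous to Hephl1, was abundant and even. It measured 241, 240, 254, 255, and 211 CPM in mice 1 to 5 on 0% RPS and 239, 293, 218, 215, and 218 CPM on 10% RPS, so that the diets overlapped. Its log2 fold change was -0.02 (SE 0.10, 95% confidence interval -0.23 to 0.18, adjusted p = 0.926 by edgeR), and the interval holds no change of 1.5-fold. The same intervals were -0.23 to 0.17 with 5% RPS and -0.19 to 0.22 with 2% RPS. Its mean coefficient of variation within a diet was 10.4%, compared with 61.9% for Hephl1 and a median of 15.6% over all genes tested. The sign of its small estimate changed with the fit. Heph overlaps Hsf3 on the opposite strand.

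The iron exporter Slc40a1 (ENSMUSG00000025993, chr1:45947211-45965683, minus strand) had lower estimates in all RPS diets, none of which passed the threshold. With 0% RPS, mice 1 to 5 had 39.9, 36.2, 39.1, 33.9, and 14.98 CPM, so that mouse 5 lay far below the others. With 5% RPS the values were 25.7, 23.6, 23.7, 12.9, and 19.7 CPM, and with 10% RPS they were 19.1, 19.9, 21.8, 32.9, and 25.7 CPM. With all mice, the values with 5 and 10% RPS overlapped with those of the control mice. They lay below the other control mice only when mouse 5 on 0% RPS was set aside, after its value was seen. The share of all genes split in this way was not counted. Over all mice, Slc40a1 differed by a log2 fold change of -0.63 (SE 0.24, adjusted p = 0.222 by edgeR) with 5% RPS, -0.46 (SE 0.23, adjusted p = 0.286) with 10% RPS, and -0.29 (SE 0.23, adjusted p = 0.929) with 2% RPS. Without mouse 5 on 0% RPS these were -0.81 (adjusted p = 0.0503), -0.63 (adjusted p = 0.0930), and -0.46 (adjusted p = 0.704), all by edgeR. Over the 20 mice, log2 CPM of Slc40a1 and the summed level of 6 smooth muscle markers had a Pearson r of -0.867, as a description, and the share of mitochondrial counts and Slc40a1 had one of -0.723. The part of the muscle content of the samples in the Slc40a1 values was not tested.

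Slc11a2 (ENSMUSG00000023030, chr15:100285776-100322953, minus strand), the divalent metal transporter of the luminal membrane, was 38.96, 39.7, 38.5, 31.8, and 30.1 CPM in mice 1 to 5 on 0% RPS. On 10% RPS it was 41.1, 52.0, 45.5, 40.6, and 46.2 CPM. The diets did not overlap, and the gap between them was narrow, from 39.7 to 40.6 CPM. The log2 fold change was 0.33 (SE 0.10, 95% confidence interval 0.12 to 0.55), with an unadjusted p of 0.00436 and an adjusted p of 0.0913 by edgeR, and its interval lies below 1.5-fold. DESeq2 gave an adjusted p of 0.0403, and with 1 surrogate variable in edgeR it was also within 0.05, in both cases at a fold change under 1.5. Over the 10 fits without 1 mouse the adjusted p ranged from 0.0538 to 0.182 (edgeR). The estimates with 5 and 2% RPS were 0.21 and 0.20 (SE 0.10 each), and in both diets the mice overlapped with those on 0% RPS. Slc11a2 overlaps Gm5475 on the opposite strand.

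Cybrd1 (ENSMUSG00000027015, chr2:70948267-70973270, plus strand), a ferric reductase that supplies ferrous iron to Slc11a2, ranged from 2.99 to 6.63 CPM with 0% RPS and from 4.57 to 6.38 CPM with 10% RPS. Cybrd1 differed by a log2 fold change of 0.33 (SE 0.24, adjusted p = 0.458 by edgeR) with 10% RPS and 0.44 (SE 0.24, adjusted p = 0.442) with 5% RPS, and the mice overlapped in both comparisons. The spread among the control mice alone was larger than this difference. Without control mouse 5, Cybrd1 had 0.54 (SE 0.24, adjusted p = 0.250 by edgeR) with 10% RPS and 0.64 (SE 0.24, adjusted p = 0.195) with 5% RPS. Over the 10 fits without 1 mouse the estimate with 10% RPS lay between 0.22, without mouse 1 on 0% RPS, and 0.54.

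Tfrc (ENSMUSG00000022797, chr16:32427556-32451612, plus strand), the transferrin receptor, takes up iron from the blood side and is abundant in dividing cells. It varied widely between mice of the same diet, at 363, 549, 574, 292, and 166 CPM in mice 1 to 5 on 0% RPS and at 279, 429, 203, 503, and 344 CPM on 10% RPS. Values with 5% RPS were 419, 243, 176, 88.3, and 213 CPM. Its mean coefficient of variation within a diet was 42.4%, above the 90th percentile of all genes tested (41.6%). Tfrc gave a log2 fold change of -0.15 (SE 0.39, 95% confidence interval -0.97 to 0.68, adjusted p = 0.879 by edgeR) with 10% RPS, and -0.77 (SE 0.40, adjusted p = 0.421) with 5% RPS. The interval with 10% RPS includes changes of 1.5-fold in both directions, and the sign of the estimate changed with the fit. Without control mouse 5, Tfrc had -0.33 (SE 0.38) with 10% RPS and -0.96 (SE 0.38, adjusted p = 0.240 by edgeR) with 5% RPS.

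The ferritin heavy chain Fth1 (ENSMUSG00000024661, chr19:9957911-9962462, plus strand), which carries the ferroxidase centre of the ferritin shell, measured 1912, 1939, 2084, 1715, and 3796 CPM in mice 1 to 5 on 0% RPS. On 10% RPS it measured 1363, 1689, 1750, 2220, and 1698 CPM. The light chain Ftl1 (ENSMUSG00000050708, chr7:45107367-45109308, minus strand), which aids mineralization of the iron core, measured 137, 139, 145, 139, and 233 CPM on 0% RPS and 99.5, 102, 113, 142, and 133 CPM on 10% RPS. Both genes were highest in control mouse 5, the mouse with the lowest Slc40a1 of its diet, and the diets overlapped for both.

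For Fth1, mice fed 10% RPS differed by a log2 fold change of -0.39 (SE 0.21, adjusted p = 0.312 by edgeR). For Ftl1 it was -0.43 (SE 0.17, unadjusted p = 0.0189, adjusted p = 0.170 by edgeR). Without control mouse 5 these became -0.12 (SE 0.18) for Fth1 and -0.23 (SE 0.15) for Ftl1, so that 1 mouse carried much of both estimates. For Fth1, leaving out this mouse also turned the estimates with 5 and 2% RPS from -0.24 and -0.26 to 0.03 and 0.01. The log2 ratio of Fth1 to Ftl1 was 3.82 ± 0.14, 3.84 ± 0.25, 3.91 ± 0.08, and 3.88 ± 0.15 (SD, n = 5 each) with 0, 2, 5, and 10% RPS, and the ranges of the diets overlapped. Over the 20 mice, Fth1 had a Pearson r of 0.694 with the share of mitochondrial counts and -0.697 with the summed cell cycle markers, and Ftl1 one of -0.624 with the cell cycle markers and 0.634 with the neuron and glia markers, as a description. Their part in the ferritin values was not tested. Ftl1 overlaps Gm10252 on the opposite strand.

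Atp7a (ENSMUSG00000033792, chrX:105070845-105171766, plus strand) exports copper from the enterocyte and loads copper enzymes in the secretory pathway. It was 5.50, 6.25, 4.91, 5.71, and 2.98 CPM in mice 1 to 5 on 0% RPS and 10.8, 10.8, 6.89, 3.30, and 6.34 CPM on 10% RPS, where mouse 4 lay below all control mice but mouse 5. This gave a log2 fold change of 0.60 (SE 0.25, 95% confidence interval 0.07 to 1.13), with an unadjusted p of 0.0293 and an adjusted p of 0.206 by edgeR. Without mouse 4 on 10% RPS it was 0.79 (adjusted p = 0.0468 by edgeR) and passed the threshold. Over the 10 fits without 1 mouse the adjusted p ranged from 0.0468 to 0.446 (edgeR). In the paper, whose thresholds were the same but whose test was DESeq2, Atp7a is among the cecum genes upregulated with 10% RPS. DESeq2 as run here did not call Atp7a. Over the 20 mice, the Pearson r of Atp7a was 0.726 with the summed cell cycle markers and -0.775 with the summed neuron and glia markers, as a description, and the part of either cell type in its values was not tested.

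Atp7b (ENSMUSG00000006567, chr8:22482801-22550352, minus strand), the related copper pump best known in the liver, was as rare as Hephl1, with 222 counts in all. Its summed counts were 39 with 0% RPS and 59 with 10% RPS, a ratio of 1.52 (95% interval 0.994 to 2.33, counting error only). In the fit the log2 fold change was 0.61 (SE 0.36, adjusted p = 0.354 by edgeR), and it was 0.34 without mouse 1 on 10% RPS. The control mice ranged from 0.225 to 0.326 CPM and lay within the range of 0.225 to 0.697 CPM with 10% RPS.

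Counted together with 10 versus 0% RPS, 1 of the 10 genes passed the threshold (adjusted p of at most 0.05 and a fold change of at least 1.5), compared with 1.04% of the 15348 genes tested. Unadjusted p-values below 0.05 were obtained for 4 of the 10, namely Hephl1 and Ftl1 with lower and Slc11a2 and Atp7a with higher estimates, compared with 19.5% of all genes (9.75% lower and 9.74% higher). Without control mouse 5, Ftl1 and Atp7a no longer had one (adjusted p = 0.427 and 0.349 by edgeR), whereas Slc40a1 and Cybrd1 did (adjusted p = 0.0930 and 0.250). The values of the 2 diets did not overlap for 2 of the 10, compared with 4.88% of all genes. The median log2 fold change was -0.09 over the 10 genes and 0.00 over all genes. With so few genes, chosen with earlier results of these data known, these shares are a description only.

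With 5% RPS, 0 of the 10 genes passed the threshold, compared with 0.195% of all genes, and over all mice Slc40a1 was the only one with an unadjusted p under 0.05 (13.3% of all genes; edgeR). Without control mouse 5, Cybrd1, Tfrc, and Hephl1 also had one (adjusted p = 0.195, 0.240, and 0.255 by edgeR), and none passed the threshold. With 2% RPS, 0 of the 10 and 0.0% of all genes passed it, and over all mice Hephl1 was the only one with an unadjusted p under 0.05 (5.77% of all genes; edgeR). Slc40a1 also had one with 2% RPS when control mouse 5 was left out (adjusted p = 0.704 by edgeR). DESeq2 also called 0 of the 10 in both diets, where it called 241 of the 19887 genes with 5% RPS and 5 with 2% RPS. No values without overlap were found among the 10 in either diet, compared with 3.57% and 1.09% of all genes. The 3 comparisons share the mice fed 0% RPS, so that they are not independent of each other.

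**Figure D2:**
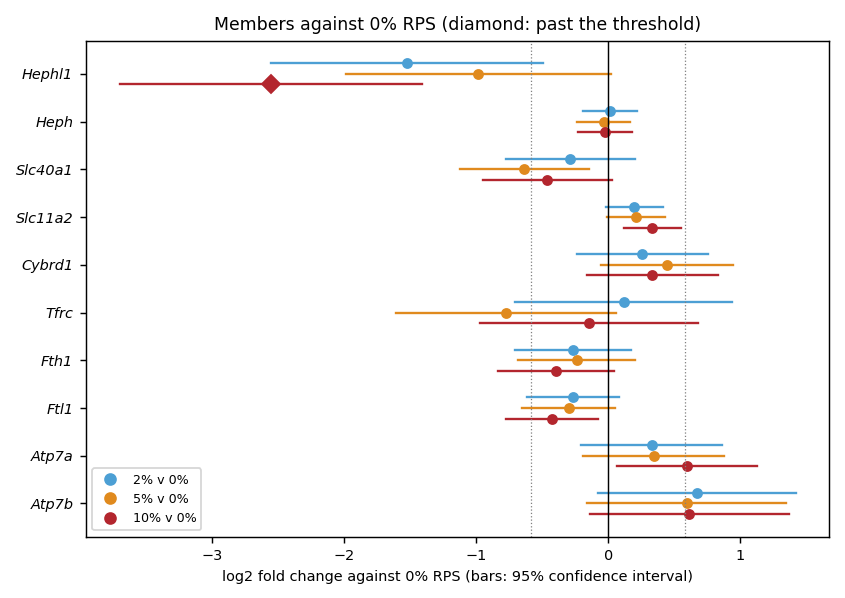
Log2 fold change of each gene against 0% RPS with 2, 5, and 10% RPS (edgeR). Bars are 95% confidence intervals, dotted lines mark a 1.5-fold change, and the diamond marks the value past the threshold, Hephl1 at -2.55 with 10% RPS.

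Neighbouring doses were compared to see where along the series the levels separated. None of the 10 genes passed the threshold between 5 and 2% RPS or between 10 and 5% RPS, in each of which 0.0% of all genes passed it. Between 5 and 2% RPS, Tfrc alone had an unadjusted p below 0.05 (log2 fold change -0.89, SE 0.40, adjusted p = 0.9998 by edgeR), where 3.39% of all genes had one. Between 10 and 5% RPS, Hephl1 alone did so (log2 fold change -1.57, SE 0.58, adjusted p = 0.9998 by edgeR), compared with 2.79% of all genes.

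When a linear trend with the dose of RPS was fitted, 0 of the 10 genes had an adjusted p of at most 0.05, compared with 1.11% of all genes. Of the 10, 4 had an unadjusted p under 0.05, compared with 18.8% of all genes. Hephl1 had a log2 slope of -0.22 per percent RPS (SE 0.06, adjusted p = 0.0562 by edgeR), Slc11a2 one of 0.03 (SE 0.01, adjusted p = 0.124), Ftl1 one of -0.04 (adjusted p = 0.200, and -0.02 without control mouse 5), and Atp7a one of 0.05 (adjusted p = 0.232). The slope of Hephl1 passed without mouse 3 or 5 on 2% RPS or mouse 4 on 5% RPS (lowest adjusted p = 0.0302 by edgeR), and that of Atp7a without mouse 4 on 10% RPS (adjusted p = 0.0474). In a test for any difference among the 4 diets, 0 of the 10 passed (0.0912% of all genes did), while Hephl1 and Slc11a2 had unadjusted p-values of 0.000918 and 0.0346 by edgeR (11.1% of all genes were under 0.05). DESeq2 called 0 of the 10 in the trend, where it gave Hephl1 no adjusted p and called more of all genes than edgeR did. In the test for any difference DESeq2 called Hephl1, as 1 of 473 called among the 19887 genes.

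Around the 10 genes, 117 further genes of iron and copper biology were examined in 8 lists, also chosen with earlier results of these data known. Of these genes, 106 passed the filter on low counts. With 10% RPS, 2 of the 106 were downregulated past the threshold (0.495% of all genes were), Mt1 and Hmox1, and 0 were upregulated. Unadjusted p-values below 0.05 were obtained for 31 of the 106, or 29.2%, compared with 19.5% of all genes tested, with 12 higher and 19 lower. The median log2 fold change was -0.09 over the 106 genes. With 5% RPS 24 of the 106 had an unadjusted p under 0.05 (13.3% of all genes) and 0 passed the threshold (0.195% of all genes). With 2% RPS these were 10 (5.77% of all genes) and 0 (0.0% of all genes). Without mouse 5 on 0% RPS, 0 of the 106 genes passed the threshold with 10% RPS, where 42 genes of the whole table still did.

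Metallothioneins bind copper and zinc. Of the 2 tested, Mt1 was downregulated past the threshold with 10% RPS and Mt2 had a lower estimate short of it. Mt1 was 67.9, 38.4, 38.6, 43.04, and 61.3 CPM in mice 1 to 5 on 0% RPS and 25.7, 22.7, 19.5, 36.3, and 23.03 CPM on 10% RPS, without overlap. Its log2 fold change was -0.97 (SE 0.21, adjusted p = 0.0276 by edgeR), and its mean was 33.2 ± 8.86 and 33.7 ± 7.57 CPM (SD, n = 5 each) with 2 and 5% RPS. It passed the threshold in 3 of the 10 fits without 1 mouse, with adjusted p-values of 0.00924 to 0.101 (edgeR), and not without mouse 5 on 0% RPS (0.0676). Mt2 was 48.4, 17.6, 18.6, 23.9, and 18.4 CPM on 0% RPS and 12.4, 8.08, 7.84, 17.4, and 8.48 CPM on 10% RPS, also without overlap, with a log2 fold change of -1.23 (SE 0.37, adjusted p = 0.0840 by edgeR). Mt2 passed the threshold under DESeq2 (adjusted p = 0.0131) and without mouse 4 on 10% RPS (0.0451 by edgeR), and its log2 fold change was -0.86 without mouse 1 on 0% RPS. Mt1 and Mt2 were the 2 of the 15 copper transport and chaperone genes tested without overlap between these diets (4.88% of all genes). Of the 15, 12 had lower estimates with 10% RPS, compared with 7540 of the 15348 genes tested. Of these 12, 4 had an unadjusted p under 0.05 (9.75% of all genes were lower with one). The copper importer Slc31a1 (-0.19, SE 0.15) and the chaperone Atox1 (-0.22, SE 0.17), which hands copper to Atp7a and Atp7b, did not have one.

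Hmox1, the inducible heme oxygenase that frees iron from heme, was 8.56, 5.14, 7.17, 5.71, and 6.34 CPM in mice 1 to 5 on 0% RPS. On 10% RPS it was 3.83, 3.33, 3.82, 3.53, and 3.30 CPM, below all control mice and within a narrow range. Hmox1 was the 1 gene of the 12 heme genes tested without overlap between these diets (4.88% of all genes). In the fit its log2 fold change was -0.88 (SE 0.20, adjusted p = 0.0289 by edgeR). It passed the threshold in 2 of the 10 fits without 1 mouse, with adjusted p-values of 0.0204 to 0.0874 (edgeR). Of the 12 heme genes tested, 8 had lower estimates, compared with 7540 of all 15348. The 4 with an unadjusted p under 0.05 (19.5% of all genes) were all lower (9.75% of all genes), and they included Hmox1, the constitutive paralog Hmox2 (-0.57, SE 0.23) and Alas1 (-0.29, SE 0.12), which starts heme synthesis.

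Among genes of iron import, Slc39a14, a zinc transporter that also carries iron not bound to transferrin, had an adjusted p within 0.05 but a fold change under 1.5. It was 47.8, 46.4, 49.3, 50.6, and 41.6 CPM in mice 1 to 5 on 0% RPS and 68.4, 75.9, 61.2, 50.3, and 57.7 CPM on 10% RPS, where mouse 4 lay within the control range. The log2 fold change was 0.41 (SE 0.09, adjusted p = 0.0316 by edgeR) with 10% RPS and 0.38 with 5% RPS. Over the 10 fits without 1 mouse the adjusted p of Slc39a14 ranged from 0.00645 to 0.0963 (edgeR), and it was 0.0620 without control mouse 5. Slc25a37, the mitochondrial iron importer mitoferrin, had a log2 fold change of -0.30 (SE 0.11, adjusted p = 0.148). In this list 3 of the 19 genes tested, including the ferric reductase Steap2 (0.31, SE 0.14), had an unadjusted p under 0.05, a share of 15.8% against 19.5% of all genes.

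Cp, ceruloplasmin, is the remaining multicopper ferroxidase of the family. It was 6.74, 8.92, 6.04, 4.23, and 4.56 CPM in mice 1 to 5 on 0% RPS and 9.59, 7.67, 9.99, 10.5, and 10.5 CPM on 10% RPS, with control mouse 2 inside the range of 10% RPS. Its log2 fold change was 0.66 (SE 0.19, unadjusted p = 0.00184, adjusted p = 0.0670 by edgeR), with means of 6.89 ± 1.57 and 7.94 ± 0.984 CPM (SD, n = 5 each) with 2 and 5% RPS. Cp passed the threshold under DESeq2 (adjusted p = 0.0154) and, without mouse 2 on 0% RPS, by edgeR (log2 fold change 0.84, adjusted p = 0.0204). Over the 10 fits without 1 mouse its adjusted p ranged from 0.0204 to 0.162 (edgeR).

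In the iron-sulfur cluster list, 16 of the 20 genes tested had lower estimates with 10% RPS, compared with 7540 of all 15348. An unadjusted p under 0.05 was obtained for 7 (19.5% of all genes), 6 of them lower (9.75% of all genes). The differences were small, with log2 fold changes of -0.27 (SE 0.08, adjusted p = 0.0761) for Isca2, -0.42 (SE 0.13, adjusted p = 0.0904) for Lyrm4, a partner of the cysteine desulfurase, and -0.44 (SE 0.14, adjusted p = 0.0956) for Ciao2b, which acts in cytosolic cluster assembly. Without control mouse 5, which had the highest Ciao2b of its diet, the estimate for Ciao2b was -0.29 (adjusted p = 0.255 by edgeR). Nfs1, the desulfurase itself, had a higher estimate (0.20, SE 0.09). In the iron sensing list, an unadjusted p below 0.05 was seen for 5 of 15 genes (19.5% of all genes). Hif1a, a hypoxia-inducible factor, had a log2 fold change of -0.61 (SE 0.18, adjusted p = 0.0734). It was the 1 gene of the 15 without overlap between the diets (4.88% of all genes). The paper, which used DESeq2 with the same thresholds, lists Hif1a as downregulated in the cecum with 10% RPS. Epas1, the related factor known to drive Slc11a2 and Cybrd1 in the duodenum, had a log2 fold change of -0.22 (SE 0.12, adjusted p = 0.328). The ligand Bmp2 had 0.43 (SE 0.15, adjusted p = 0.138) and Bmp6 -0.54 (SE 0.21, adjusted p = 0.158), all by edgeR. The iron regulatory proteins Aco1 and Ireb2, which bind the hairpins printed above, had -0.16 (SE 0.08, adjusted p = 0.267) and 0.18 (SE 0.19, adjusted p = 0.644).

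The list of copper enzymes, which also holds the clotting factors F5 and F8, was the one with mainly higher estimates. Of its 15 genes tested, 11 were higher (7808 of 15348 over all genes). All 6 with an unadjusted p under 0.05 were higher (9.74% of all genes were). These were the lysyl oxidase relatives Loxl1, Loxl2, and Loxl4, which cross-link collagen and elastin, the peptide-amidating enzyme Pam, the amine oxidase Aoc1, and the clotting factor F5. Loxl2 had a log2 fold change of 0.53 (SE 0.19, adjusted p = 0.148 by edgeR) with 10% RPS and 0.75 with 5% RPS. None of the 6 passed the threshold. Loxl2 averaged 11.8, 13.9, 19.8, and 16.9 CPM with 0, 2, 5, and 10% RPS, and the summed smooth muscle markers averaged 3224, 3881, 5547, and 4738 CPM in the same order. Their part in the values of this list was not tested. In the storage and chaperone list, 1 of 5 genes, the iron chaperone Pcbp2 (-0.24, SE 0.09), had an unadjusted p under 0.05 (19.5% of all genes), and Ncoa4, the receptor for breakdown of ferritin, had 0.08 (SE 0.14).

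**Figure D3:**
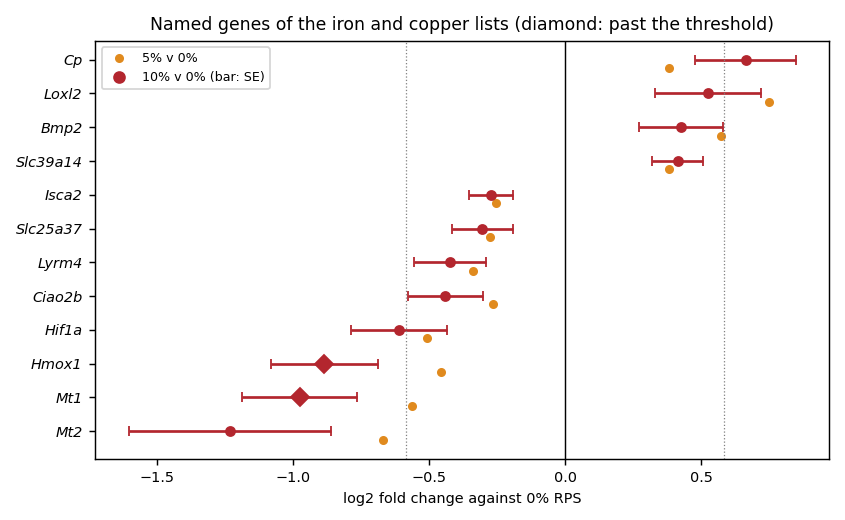
Log2 fold change against 0% RPS of the 12 named genes of the iron and copper lists, with 10% RPS (bars are SE) and 5% RPS (small points). Diamonds mark Mt1 at -0.97 and Hmox1 at -0.88, which passed the threshold with 10% RPS, and dotted lines mark a 1.5-fold change.

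Summed markers of other cells were compared between the same mice, and none of them passed the test after adjustment. With 10 versus 0% RPS, the summed level of 7 B cell markers was 221 ± 118 against 57.3 ± 92.3 CPM (SD, n = 5 each), that of 9 macrophage markers 272 ± 59.6 against 171 ± 67.6 CPM, and that of 6 smooth muscle markers 4738 ± 843 against 3224 ± 1278 CPM. The sum of 8 epithelial markers was 29840 ± 5826 against 36570 ± 2764 CPM, and that of the red cell markers was 7.87 ± 2.27 against 13.7 ± 4.56 CPM. Taken singly, 6 of the 8 epithelial markers had lower and 2 had higher estimates. Of these 8, 1 was upregulated and 0 were downregulated past the threshold used for genes, which 1.04% of all genes passed. In exact two-sided permutation tests the p-values were 0.0318, 0.0397, 0.0635, 0.0556, and 0.0556, and 0.114 for each after adjustment over 9 measures. Ranges overlapped in all 5. As a description over the 20 mice, Hephl1 had a Pearson r of 0.513 with the epithelial and 0.561 with the red cell markers, and the macrophage markers gave r values between -0.521 and 0.289 with the 10 genes. The part of cell composition in the values of the 10 genes was not tested.

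Over the 20 mice, some of the genes varied together, given as a description since the mice share diets and the libraries differ in depth. The Pearson r of log2 CPM was 0.889 for Fth1 and Ftl1 and 0.795 for Slc40a1 and Tfrc, and 0.881 and 0.804 after the mean of each diet was removed. Ftl1 had an r of -0.766 with Atp7a and -0.757 with Slc11a2, and -0.708 and -0.654 within diets. Mice with more Ftl1 thus tended to have less Slc11a2 and Atp7a, also among mice on the same diet. Tfrc, like Slc40a1, was lower where smooth muscle markers were higher (r of -0.721).

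**Figure D4:**
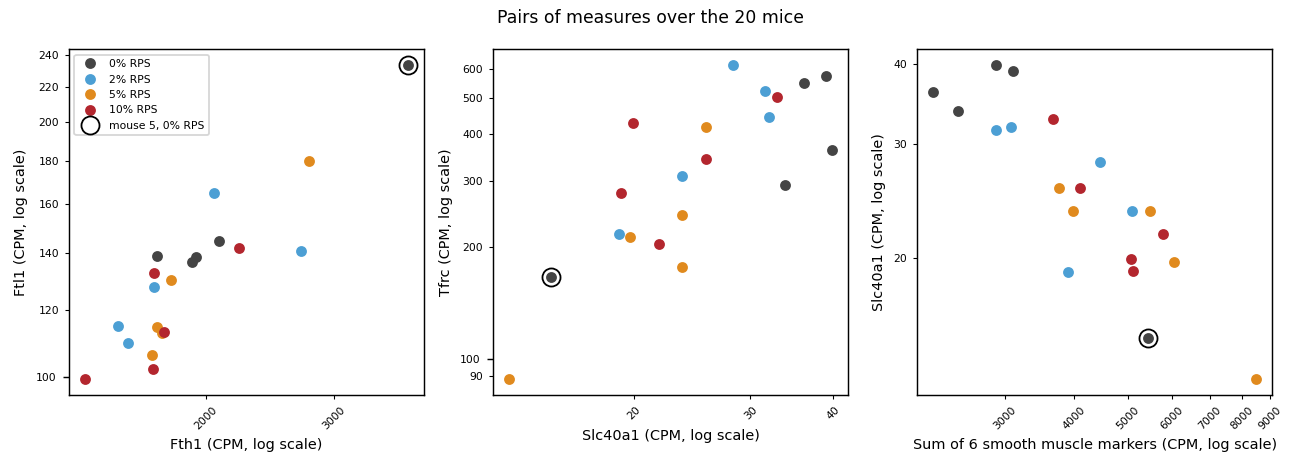
CPM of Ftl1 against Fth1, of Tfrc against Slc40a1, and of Slc40a1 against the summed CPM of 6 smooth muscle markers, on log axes, with 1 point per mouse coloured by diet. Pearson r of log2 values was 0.889, 0.795, and -0.867, and the circled mouse 5 on 0% RPS lay apart from the other control mice in all 3 panels.

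The genes most alike in pattern were sought for the 6 members with a mean of at least 10 CPM, among 9323 genes of at least that level, by the Pearson r of log2 CPM over the 20 mice. For Fth1 these were Atp5f1d (0.962), Ndufa13 (0.958), and Pfn1 (0.953), and for Ftl1 they were Card19 (0.942), Gpx4 (0.941), and Fkbp1a (0.936). For Tfrc they were Ptprr (0.921), Tc2n (0.892), and Glce (0.882), and for Slc40a1 Senp2 (0.901), Tc2n (0.901), and Pdlim5 (0.895), so that Tc2n appeared for both. Heph was most like Pls1 (0.900), Pdzd8 (0.894), and Vps4b (0.891), and Slc11a2 most like Arhgap20 (0.875), Clec2h (0.859), and Slc13a2 (0.850). None of these 6 members was among the 3 most alike of another of them.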

How the data were processed

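The deposited table holds raw counts for each gene in each mouse. According to the study's methods and the labels, stranded mRNA libraries were sequenced and the reads were trimmed by quality, mapped to GRCm39, and counted in the CLC Genomics Workbench; the annotation release, the treatment of multi-mapping reads, and the strand setting are not given in the sources used here. Reads shared by gene copies or overlapping genes could change the counts of those genes. Symbols, coordinates, and transcripts came from GENCODE M39 (19827 identifiers found, 60 not). Counts were filtered with filterByExpr (minimum count 10, minimum total 15), scaled by TMM, and fitted over all 20 mice with edgeR 4.0.16 (R 4.3.3) by quasi-likelihood with robust empirical Bayes, leaving 15348 genes. Adjusted p-values are Benjamini-Hochberg over these genes. Calls needed an adjusted p of at most 0.05 and a 1.5-fold change, without the fold for the trend and the test of any difference. The p-values measure the spread between mice. Log2 CPM for correlations used a prior count of 2. DESeq2 1.42.0, sva 3.50.0, other filters, and leaving out each mouse were tried. The fits were checked on simulated counts.

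The 10 genes and all lists were chosen with earlier results of these data known. Besides them, named genes were those of the lists past the threshold in any comparison with 0% RPS or the trend and, up to 12 in all, those with the smallest unadjusted p with 10% RPS, and the 3 genes most alike to each abundant member. Other genes of the lists were named for their roles after their values were seen.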

Additional observations from a re-analysis of the deposited data

Results flagged for a closer look

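Dixon's test for a mouse far from the other 4 of its diet was applied to 104 groups of 5 mice, the 10 genes, the named list genes, and the ratios in each diet, and marked 8, when chance alone would mark about 5.2. Mouse 5 on 0% RPS accounted for 5 of them. Its Slc40a1 was 14.98 CPM (33.9 to 39.9 in the other control mice), its Fth1 3796 CPM (1715 to 2084), its Ftl1 233 CPM (137 to 145), its Ciao2b 46.1 CPM (28.7 to 32.6), and its log2 ratio of Heph to Slc40a1 3.82 (2.60 to 2.91). The same mouse had 13.0% mitochondrial counts and a smooth muscle marker sum of 5427 CPM, compared with 2231 to 3102 CPM in the other control mice, and the part of either in these values was not tested.

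Mouse 4 on 5% RPS, which had 15.4% mitochondrial counts and 8486 CPM of smooth muscle markers, had 2774 CPM of Fth1 (1684 to 1789 in the others). Mouse 5 on 2% RPS had 13.6 CPM of Hif1a (24.9 to 27.5), and mouse 1 on 0% RPS had 48.4 CPM of Mt2 (17.6 to 23.9).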

How the results depend on the processing

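The call of 1 of the 10 genes with 10% RPS became 0 under DESeq2, with at least 10 counts required in every mouse, under glmTreat against 1.5-fold, and with only the 2 diets in the fit, and it ranged from 0 to 2 when 1 mouse was left out. Hephl1 was not tested under the stricter filter or with the 2 diets alone, and DESeq2 gave it a log2 fold change of -2.60 (unadjusted p = 2.7e-05) but no adjusted p. Over the other alternatives with all mice in which edgeR tested it, its adjusted p ranged from 0.0258 to 0.751, the highest under glmTreat. The trend, with 0 of the 10, gave 1 with the rank of the dose (Hephl1, adjusted p = 0.0335) and 0 to 1 without 1 mouse, and the test for any difference gave 1 with DESeq2's likelihood ratio test. The 2 list genes became 5 with DESeq2 and 0 with glmTreat, and 0 to 3 without 1 mouse. The 160 genes called over the whole table with 10% RPS became 368 with DESeq2, 98 with only the 2 diets, 0 with glmTreat, and 14 to 344 without 1 mouse. Without 1 mouse, the 170 genes of the trend became 0 to 674, the 30 with 5% RPS 0 to 114, and the 14 of the test for any difference 3 to 103, and DESeq2 called 241 with 5% RPS and 473 in the test for any difference, and also more genes than edgeR in the trend. The causes were not tested.

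With 1 surrogate variable the sign turned for Heph with 10% RPS (0.0888), with 5% RPS (0.0177), and in the slope (0.0082), and for Tfrc with 10% RPS (0.1319) and in the slope (0.0020). Leaving out 1 mouse turned it within these ranges: Heph with 10% RPS -0.1134 to 0.0143, with 5% RPS -0.0718 to 0.0107, with 2% RPS -0.0352 to 0.0556, and slope -0.0123 to 0.0001; Tfrc with 10% RPS -0.3278 to 0.0366 and with 2% RPS -0.0702 to 0.2993; Fth1 with 5% RPS -0.4104 to 0.0285 and with 2% RPS -0.4296 to 0.0092. The other directions of the 10 genes against 0% RPS held in every alternative that was run, some of which were chosen after seeing the data. No paired analysis was possible because no mouse number of the labels occurs in more than 1 diet. For Hephl1 and Atp7b, with 183 and 222 counts in all, depth limits what can be seen.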
